A study of Mus musculus with 16 samples.

Results

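The use of sugar by the adult mouse heart was followed through 36 genes: 4 carriers of glucose and lactate, 9 genes of upper glycolysis, 10 of lower glycolysis, 2 of lactate dehydrogenase, 6 of glycogen metabolism and 5 further targets of the hypoxia response. They were chosen by symbol, with earlier results of these data known, so their shares set beside all genes below are descriptions and not tests. The 36 symbols head 37 rows of the 16118 in the normalised table, since Aldoa heads 2 rows. Polyadenylated RNA was sequenced separately from the atria and from the ventricles of 8 adult male littermates, which gives 16 libraries in 4 groups of 4. All 8 mice carried floxed alleles of both Meis1 and Meis2 (Meis1flox/flox; Meis2flox/flox), and hearts were taken 2 weeks after tamoxifen. The 4 idKO mice also carried 1 copy of alpha-MHC-MerCreMer (tg/wt), a Cre recombinase that tamoxifen activates and that the alpha-MHC promoter drives in cardiomyocytes. The 4 control mice were alpha-MHC-MerCreMer wt/wt, so loss of Meis1 and Meis2 cannot be told apart from an effect of the transgene itself. MEIS1 and MEIS2 are homeodomain transcription factors. Replicate numbers below name the mouse, and atrium 1 and ventricle 1 of a genotype are from the same animal.

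Glycolysis splits glucose into pyruvate, which heart muscle either reduces to lactate or passes to its mitochondria. Glucose enters through GLUT carriers and is trapped by hexokinase, phosphofructokinase commits it to breakdown, and lactate dehydrogenase turns pyruvate and lactate into each other. Glycogen is the store that heart muscle builds with glycogen synthase and breaks down with glycogen phosphorylase. Many of these genes exist as isozymes for muscle, liver, brain or all tissues, and many are targets of the hypoxia-inducible factors, which accumulate when oxygen is low and bind a short DNA core. An adult heart draws most of its energy from fatty acids and keeps glycolysis in reserve.

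Promoter sequences (250 bases before to 50 after a start site) were taken from RefSeq on build GRCm38.p6. They were found for 33 of the 36 symbols, with 52 start sites. Slc2a4, Ndrg1 and Pgm1 had none. The 6 below belong to genes whose transcript levels the ventricular comparison turns on, and to Ldha, the partner isozyme of Ldhb. Each is written 5′ to 3′ on the strand of the gene. Capitals mark the hypoxia core (ACGTG or GCGTG on either strand, so that CACGT and CACGC are also capitals, and CACGTG counts on both strands) and the MEIS hexamer TGACAG (or CTGTCA).
Pfkp, chr13:6648722-6649021, minus strand: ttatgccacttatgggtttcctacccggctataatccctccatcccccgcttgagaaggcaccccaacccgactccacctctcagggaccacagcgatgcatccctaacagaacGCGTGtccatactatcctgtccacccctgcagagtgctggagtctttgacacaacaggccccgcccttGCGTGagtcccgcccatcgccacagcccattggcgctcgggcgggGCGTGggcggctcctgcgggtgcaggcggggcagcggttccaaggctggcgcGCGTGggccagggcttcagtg
Slc16a1, chr3:104638414-104638713, plus strand: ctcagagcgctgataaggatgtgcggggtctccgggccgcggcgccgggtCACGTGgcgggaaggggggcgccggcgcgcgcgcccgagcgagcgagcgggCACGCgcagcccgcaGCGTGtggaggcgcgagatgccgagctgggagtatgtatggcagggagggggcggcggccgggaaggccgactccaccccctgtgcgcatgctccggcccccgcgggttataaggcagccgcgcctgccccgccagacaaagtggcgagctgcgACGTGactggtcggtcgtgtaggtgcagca
Ldha, first start site, chr7:46845554-46845853, plus strand: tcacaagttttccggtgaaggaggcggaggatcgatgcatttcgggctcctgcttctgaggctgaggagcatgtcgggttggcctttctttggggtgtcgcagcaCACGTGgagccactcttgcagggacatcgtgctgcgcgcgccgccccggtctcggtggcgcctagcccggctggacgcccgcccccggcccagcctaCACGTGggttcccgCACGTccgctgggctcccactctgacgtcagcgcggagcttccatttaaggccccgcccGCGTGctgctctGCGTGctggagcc
Ldhb, chr6:142507908-142508207, minus strand: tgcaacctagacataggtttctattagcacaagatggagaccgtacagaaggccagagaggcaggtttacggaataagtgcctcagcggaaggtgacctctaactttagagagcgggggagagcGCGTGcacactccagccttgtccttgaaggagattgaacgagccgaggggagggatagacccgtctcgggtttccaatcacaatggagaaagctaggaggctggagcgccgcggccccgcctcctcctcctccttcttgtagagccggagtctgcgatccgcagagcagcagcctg
Pkm, second start site, chr9:59656977-59657276, plus strand: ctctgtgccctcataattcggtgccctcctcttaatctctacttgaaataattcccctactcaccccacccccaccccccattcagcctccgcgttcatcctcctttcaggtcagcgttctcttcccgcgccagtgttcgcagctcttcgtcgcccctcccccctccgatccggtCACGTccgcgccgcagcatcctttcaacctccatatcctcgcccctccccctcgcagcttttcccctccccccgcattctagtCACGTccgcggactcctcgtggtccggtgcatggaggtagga
Pfkfb1, first start site, chrX:150587195-150587494, plus strand: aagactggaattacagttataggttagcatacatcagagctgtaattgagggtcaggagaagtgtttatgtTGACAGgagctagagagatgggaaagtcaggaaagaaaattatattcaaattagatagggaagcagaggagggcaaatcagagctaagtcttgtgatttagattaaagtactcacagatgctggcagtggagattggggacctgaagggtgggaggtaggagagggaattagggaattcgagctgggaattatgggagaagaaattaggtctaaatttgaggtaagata

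The Ldha promoter held 7 matches to the hypoxia core, Slc16a1 5, Pfkp 4 (all GCGTG), Pkm 2 and Ldhb 1, and the Pfkfb1 promoter shown held none but 1 TGACAG. RefSeq lists 4 start sites for Pfkfb1, and the one shown is the only one with that hexamer; the second holds 1 GCGTG, and the other two hold neither. The first start site of Pkm, not shown, holds no hypoxia core. A hypoxia core was present in 38 of the 52 member promoters (73.1%), which belong to 28 of the 33 genes, against 44.0% of the 32544 promoters in the RefSeq table. The MEIS hexamer was present in 6 of the 52 (11.5%), from 5 genes, against 19.1% of all promoters. Start sites of a gene can overlap, so these promoters are not independent, and a match in a sequence is no evidence that a factor binds there.

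The depth per library lay between 13.1 and 21.8 M (mega) reads. Values are normalised read counts (CPM of an effective library size). That size was below the number of reads, on average 0.947 and 0.958 of it in control and idKO atria but 0.639 and 0.687 in control and idKO ventricles. Mitochondrial genes took 30.9% of the values in control ventricles and 17.2% in control atria. In ventricles Meis2 read 32.6, 26.6, 22.4 and 25.6 in control replicates 1 to 4 and 7.78, 8.51, 9.35 and 9.66 in idKO replicates 1 to 4, without overlap. In atria it read 22.1, 18.7, 19.4 and 19.7 in control replicates and 15.3, 18.98, 18.05 and 18.5 in idKO replicates, and the groups overlapped. Meis1 averaged 27.3 in control and 23.1 in idKO ventricles, and 28.3 and 29.7 in atria. These are totals over each gene, and the labels do not name the floxed exons. Esr1, whose hormone-binding part is built into MerCreMer, averaged 3099 in idKO ventricles and 186 in idKO atria, against 0.967 and 5.02 in controls. The 4 libraries of a group come from 4 animals, and each animal gave 1 atrial and 1 ventricular library. The tissue is bulk, so fewer cells of a type cannot be told apart from less RNA per cell.

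Per transcript length (normalised read count per kb), the set spanned a wide range in control ventricles. Aldoa, the aldolase of muscle, led at 2098 ± 97.7 (SD, n = 4), followed by Ldhb at 1478 and Eno3 at 1320, and Pkm, Pgam2 and Tpi1 came next at 764, 661 and 621. Of the genes that the genotype comparison turns on, Slc2a4 stood at 259, Slc16a1 at 85.1, Pfkp at 15.4 and Pfkfb1 at 13.0. Pfkfb3, the row named Pgm1, Slc16a3 and Aldoc were the lowest, from 2.79 down to 0.0458.

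In ventricles the lactate and glucose carriers Slc16a1 and Slc2a4, pyruvate kinase (Pkm), lactate dehydrogenase B (Ldhb) and the phosphofructokinase regulator Pfkfb1 were lower in idKO mice, and the phosphofructokinase isozyme Pfkp was higher. Pfkp stood at 167% of its control mean, Pfkfb1 at 49.4%, and the other 4 between 76.9% and 82.5%. Of the 35 members that passed the filter on low values (at least 4 libraries at 1 CPM of the summed values), 1 rose and 5 fell in limma at an adjusted p under 0.05, which is 17.1% of them, against 2.03% of the 13144 genes tested. By direction, 0.533% of all genes tested rose and 1.5% fell. The symbol without a ventricular test was Aldoc, along with the second row of Aldoa. Log2 fold changes below are on the log2(value + 1) scale. Their median over the 35 members was -0.11, against -0.0076 over all genes tested, and 27 of 35 (77.1%) were below 0, against 52% of all genes. This excess of small negative values rests in part on the scaling: 21 of 35 were below 0 when libraries were scaled to nuclear-encoded genes and 18 of 35 when they were scaled to the sum of all values. The members' median stayed 0.10 below that of all genes under both. Under these 2 scalings the calls over all genes changed from 70 higher and 197 lower to 108 and 142, and to 150 and 108.

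**Figure D1:**
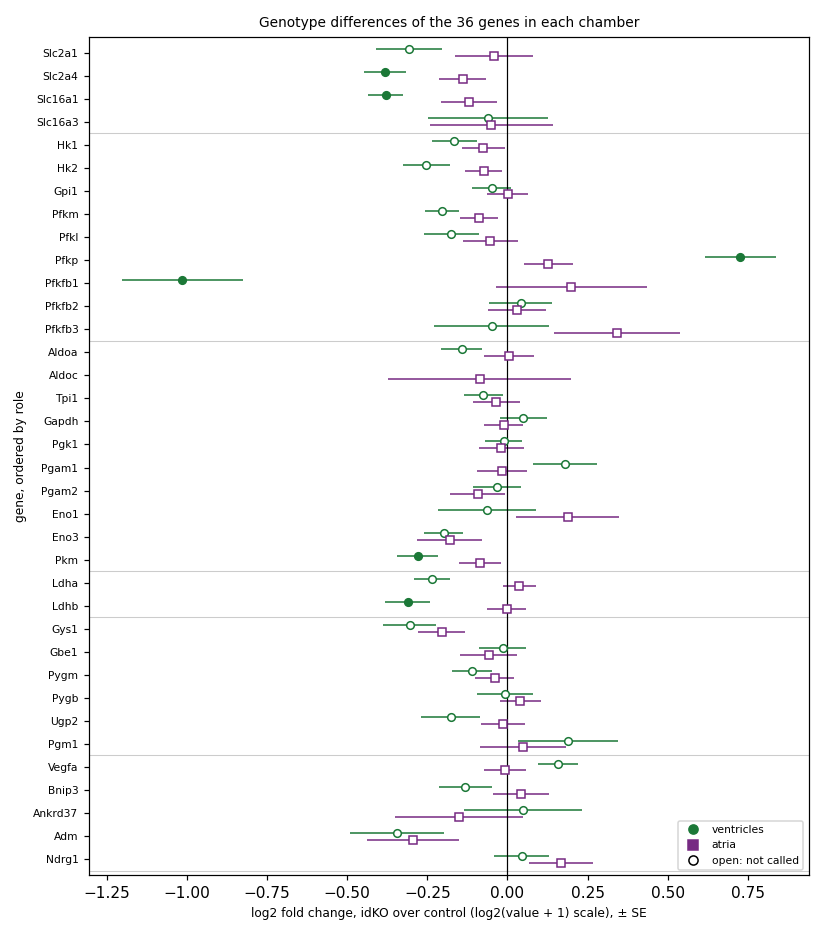
Log2 fold change (idKO over control, log2(value + 1) scale, ± SE) of each gene in ventricles (green circles) and atria (purple squares), 4 libraries a group, with genes in rows ordered by role. Filled symbols mark genes that passed limma's adjusted p under 0.05: 6 filled circles stand out in ventricles, with Pfkp at 0.73 on the right and Pfkfb1 at -1.01 on the left, and no square is filled.

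Among the carriers, Slc16a1 (chr3:104638668-104658462, plus strand, GRCm38 as for all positions) encodes MCT1, which moves lactate and pyruvate across the plasma membrane. It read 377, 374, 368 and 388 in control ventricles 1 to 4 and 285, 273, 305 and 295 in idKO ventricles 1 to 4. The 4 controls lay within a narrow band and every idKO ventricle lay well below it (log2 fold change -0.38 with SE 0.0546, limma adjusted p = 0.00238). Slc2a4 (chr11:69942539-69948188, minus strand) encodes GLUT4, the glucose carrier that insulin brings to the surface of muscle cells. It read 656, 658, 637 and 660.4 in control and 539, 437, 508 and 525 in idKO ventricles. All 4 idKO values were below the lowest control, and idKO ventricle 2 was the lowest of all (log2 fold change -0.38 with SE 0.0663, limma adjusted p = 0.00877). Slc2a1, which encodes the basal carrier GLUT1, was also without overlap, from 21.5 ± 2.504 to 17.2 ± 1.23 (SD, n = 4), but did not pass (limma adjusted p = 0.174). Slc16a3, the lactate exporter MCT4 of glycolytic cells, was low in every group, at 3.75 in control and 3.59 in idKO ventricles.

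In upper glycolysis, Pfkp encodes the platelet type of phosphofructokinase, the partner of the muscle type Pfkm and the liver type Pfkl. The gene lies at chr13:6579768-6648777 on the minus strand. It read 72.2, 68.1, 56.9 and 58.4 in control ventricles 1 to 4 and 106, 123, 113 and 84.7 in idKO ventricles 1 to 4. The lowest idKO ventricle, replicate 4, was above the highest control (log2 fold change 0.73 with SE 0.111, limma adjusted p = 0.00372). Pfkm went the other way, at 1567, 1568, 1649 and 1578 in control and 1342, 1343, 1407 and 1428 in idKO ventricles. Its groups did not overlap either, but the difference of -0.21 missed the threshold (limma adjusted p = 0.0741). Pfkl averaged 214 ± 18.3 and 189 ± 21.3, with overlap.

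The PFKFB enzymes make and remove the bisphosphate that activates phosphofructokinase, and Pfkfb1 (chrX:150588229-150643878, plus strand) is the form of liver and skeletal muscle. It read 20.5, 21.7, 23.1 and 25.1 in control ventricles and 17.4, 8.34, 7.99 and 10.9 in idKO ventricles, from 229 to 355 reads and from 98 to 229 reads. All idKO values were below the controls, but replicate 1 stood much closer to the controls than the other 3 did (log2 fold change -1.01 with SE 0.189, limma adjusted p = 0.0133). Without control ventricle 4 the adjusted p was 0.0519 in limma, above the threshold. The heart form Pfkfb2 averaged 82.5 ± 9.87 in control and 84.9 ± 9.82 in idKO ventricles, and the inducible form Pfkfb3 12.9 ± 3.14 and 12.3 ± 2.46. Hk2, the insulin-regulated hexokinase of muscle, read 525, 469, 468 and 538 in control and 393, 383, 448 and 455 in idKO ventricles, with no overlap but short of the threshold (log2 fold change -0.25, limma adjusted p = 0.1095). Hk1 and Gpi1, the general hexokinase and the glucose phosphate isomerase, overlapped between groups.

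**Figure D2:**
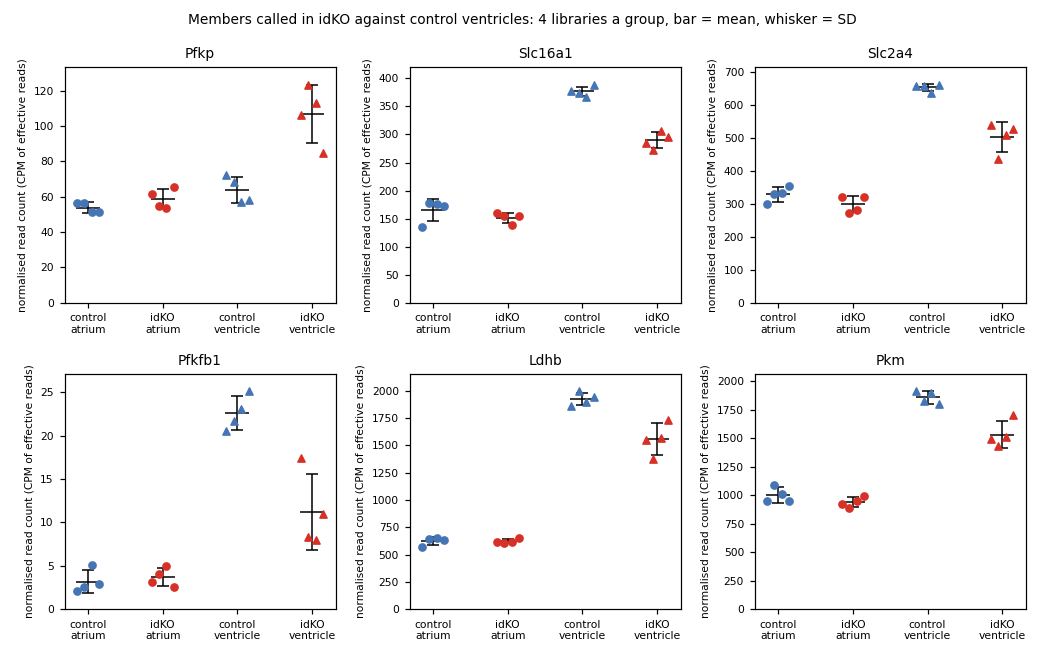
Normalised read counts (CPM of effective reads, linear axes from 0) of the 6 genes that passed in ventricles, in each of the 16 libraries (circles atria, triangles ventricles, blue control, red idKO), with the group mean (bar) and SD (whisker). In ventricles no control value overlaps an idKO value in any of the 6 panels, while in atria the 2 genotypes overlap in all 6.

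In lower glycolysis, Pkm (chr9:59656368-59679375, plus strand) encodes muscle pyruvate kinase, the last step before pyruvate. It read 1912, 1825, 1896 and 1797 in control and 1489, 1428, 1511 and 1699 in idKO ventricles, where replicate 4 lay nearest the controls (log2 fold change -0.28 with SE 0.0638, limma adjusted p = 0.0392). Eno3, the muscle enolase, read 1919, 2119, 2098 and 2121 in control and 1895, 1690.0, 1754 and 1852 in idKO ventricles. Its groups did not overlap, though control ventricle 1 and idKO ventricle 1 were close together, and it did not pass (log2 fold change -0.20, limma adjusted p = 0.133). The most abundant member per transcript length, the aldolase Aldoa, averaged 3169.5 ± 148 in control and 2872 ± 158 in idKO ventricles and overlapped. Gapdh, Pgk1, Pgam1, Pgam2 and Tpi1, the enzymes between aldolase and enolase, all overlapped, with idKO means at 103%, 99.2%, 112%, 97.5% and 94.9% of control. Of 9 lower glycolysis members tested, 1 fell and 8 did not pass.

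Lactate dehydrogenase is a tetramer of A chains (Ldha) and B chains (Ldhb), and the heart is known for its B chain. Ldhb (chr6:142490249-142507957, minus strand) read 1863, 1997, 1902 and 1947 in control ventricles and 1551, 1379.8, 1565 and 1735 in idKO ventricles. All 4 idKO values lay below the lowest control, and replicate 4 was again the nearest (log2 fold change -0.31 with SE 0.0696, limma adjusted p = 0.0357). Ldha (chr7:46841475-46855627, plus strand) read 866, 924, 821 and 869 in control and 782, 706, 731 and 737 in idKO ventricles, likewise without overlap, and lay just outside the threshold (log2 fold change -0.24, limma adjusted p = 0.0545). Ldhb made up 75.0% of the pair in control and 74.0% in idKO ventricles when levels are taken per transcript length.

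The calls of Ldhb and Pkm lay close to the threshold, and leaving out any 1 of 7 of the 8 ventricles ended them. Their log2 fold changes ran from -0.36 to -0.25 and from -0.33 to -0.25 over the omissions. Among these omissions each call was kept only when idKO ventricle 4 was left out (limma adjusted p = 0.00878 and 0.007998). Without control ventricle 1, 2, 3 or 4, the limma adjusted p of Ldhb was 0.0694, 0.0992, 0.0947 and 0.108, and without idKO ventricle 1, 2 or 3 it was 0.0836, 0.0632 and 0.08597. For Pkm the same 7 omissions gave limma adjusted p values from 0.0788 to 0.120, and it also missed the threshold when libraries were scaled to the sum of all values (log2 difference -0.18, limma adjusted p = 0.0701). Slc16a1, Slc2a4 and Pfkp passed without any 1 of the 8 ventricles. Without idKO ventricle 4, Gys1 passed as well (limma adjusted p = 0.0317).

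No glycogen gene passed in ventricles (0 of 6). Gys1, the muscle glycogen synthase, read 148, 173, 161 and 179 in control and 136, 117, 132 and 151 in idKO ventricles, where idKO replicate 4 exceeded control replicate 1 (log2 fold change -0.31, limma adjusted p = 0.0836). Pygm, the muscle glycogen phosphorylase, read 1522, 1568, 1516 and 1598 in control and 1493, 1289, 1504 and 1464 in idKO ventricles, without overlap but with only a narrow gap between the groups (limma adjusted p = 0.433). Pygb, the brain form of the phosphorylase, averaged 1197 ± 143 and 1188 ± 115. Ugp2, which makes the UDP-glucose that feeds glycogen, averaged 449.6 ± 29.4 and 400.1 ± 61.5. It read 439, 483, 415 and 462 in control and 376, 345, 391 and 488 in idKO ventricles. There idKO replicate 4 exceeded every control (limma adjusted p = 0.395). The branching enzyme Gbe1 averaged 83.98 ± 6.65 and 83.03 ± 4.52. All 3 overlapped. The row named Pgm1 in the table has the identifier ENSMUSG00000029171, a gene on chromosome 5 that GENCODE calls Pgm2, and was low, at 5.61 ± 0.897 and 6.54 ± 1.07. The phosphoglucomutase of muscle, on chromosome 4, is the row named Pgm2 (ENSMUSG00000025791, Pgm1 in GENCODE). It averaged 343 ± 8.69 and 347 ± 16.1, with overlap.

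None of the 5 further hypoxia targets passed in ventricles. Vegfa, the vascular growth factor, read 319, 316, 272 and 296 in control and 348, 320.4, 324 and 347 in idKO ventricles, higher in every idKO ventricle by a narrow margin (log2 fold change 0.16, limma adjusted p = 0.266). It passed under 1 of 23 alternatives, the scaling to the sum of all values (log2 difference 0.26, limma adjusted p = 0.0386). Adm, the vasodilator peptide adrenomedullin, read 10.9, 9.18, 8.903 and 11.3 in control and 9.07, 5.89, 7.68 and 8.39 in idKO ventricles, lower on average with overlap (limma adjusted p = 0.283). Bnip3, a mitophagy receptor, averaged 261 ± 22.8 and 239 ± 25.8, Ndrg1 45.2 ± 4.24 and 46.6 ± 3.67, and Ankrd37 4.801 ± 1.297 and 4.94 ± 0.858. Of the 5 log2 fold changes, 2 were below 0.

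Over all roles, the control and idKO ventricles did not overlap for 13 of the 35 members (37.1%), 2 higher and 11 lower, against 8.99% of all genes tested, 3.17% higher and 5.81% lower. An unadjusted p under 0.05 was reached by 16 of 35, against 15% of all genes.

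In atria no member passed (0 of 36 tested, against 0.0207% of 14523 genes tested, or 3 genes), and the smallest limma adjusted p among them was 0.966. DESeq2, edgeR and voom on the recovered reads also called 0 of them. The median log2 fold change was -0.03 and 24 of 36 were below 0 (50.1% of all genes were). In 1 of 36 the test gave an unadjusted p under 0.05 (4.61% of all genes did). The genotypes did not overlap for 0 of 36, against 2.82% of all genes. The genes of the ventricular comparison averaged, in control and idKO atria, 165 ± 19.7 and 151 ± 9.42 for Slc16a1, 329 ± 22.5 and 298 ± 24.9 for Slc2a4, and 53.8 ± 2.99 and 58.98 ± 5.49 for Pfkp (SD, n = 4). Ldhb averaged 624 ± 38.5 and 622 ± 18.0, and Pkm 998 ± 69.9 and 939 ± 44.4. Pfkfb1 was low in atria of both genotypes, at 3.15 ± 1.31 in control and 3.69 ± 1.06 in idKO mice. Gys1 had the smallest p, at 113, 116, 108 and 132 in control and 97.4, 99.2, 98.5 and 110.3 in idKO atria (log2 fold change -0.21, limma adjusted p = 0.966). Pfkfb3 had the highest log2 fold change, 0.34 with SE 0.196, from 15.8, 23.9, 32.5 and 32.8 to 26.3, 32.1, 37.05 and 34.6, where the control atria spread widest. Beside this, Meis2 stood at 88.8% of its control mean in atria and 32.96% in ventricles, and the transgene's Esr1 reads were fewer in atria. The part of these values in the result was not tested.

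A difference that passes in ventricles and not in atria is not thereby shown to differ between them, so the effect of genotype in atria less its effect in ventricles was tested in 1 fit of all 16 libraries. None of the 36 members passed (0 of 36, against 0.296% of 14871 genes), with 7 at an unadjusted p under 0.05 (6.54% of all genes), and edgeR and voom also called 0. The nearest were Pfkp, with a difference of -0.60 with SE 0.145 (limma adjusted p = 0.1404), Ldha with 0.27 with SE 0.0697 (limma adjusted p = 0.201) and Pfkfb1 with 1.21 with SE 0.322 (limma adjusted p = 0.218). Ldhb followed at 0.31 with SE 0.0908 (limma adjusted p = 0.337). DESeq2 called Pfkp and Ldha (adjusted p = 0.0138 and 0.0205). With the mouse as a fixed block, which pairs the chambers of an animal, limma called Ldhb (adjusted p = 0.0384). Without idKO ventricle 1 limma called Pfkfb1 (adjusted p = 0.0396) and without idKO ventricle 4 it called Pfkp (adjusted p = 0.0141). No member passed in all of these fits.

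The larger contrast was between the chambers themselves. In control mice most of glycolysis was more abundant in ventricles, while a small group led by Adm, Aldoc and Pfkfb3 was more abundant in atria. Of 36 members, 24 were higher in ventricles and 6 higher in atria in limma (83.3%, against 56.9% of 14871 genes, 28.7% higher in ventricles and 28.2% higher in atria), and 6 did not pass. The values did not overlap for 28 of 36 (77.8%, against 50.7% of all genes) in control mice and 29 of 36 (80.6%, against 47.2%) in idKO mice. In idKO mice 24 were higher in ventricles and 5 in atria (80.6%, against 53.8% of all genes, 27.1% and 26.8%). These counts depend on how libraries are scaled, as the mitochondrial shares above differ between chambers. Scaling to nuclear-encoded genes moved the median control difference (atrium over ventricle) of all genes from 0.02 to 0.29, and scaling to the sum of all values moved it to 0.52, with 9881 of all genes then called higher in atria and 1386 higher in ventricles, in place of 4201 and 4267. The members' median was -0.73, and it stayed 0.75, 0.75 and 0.73 below that of all genes under the 3 scalings, with 22 and 18 members called higher in ventricles and 8 and 14 higher in atria under the 2 alternatives.

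**Figure D3:**
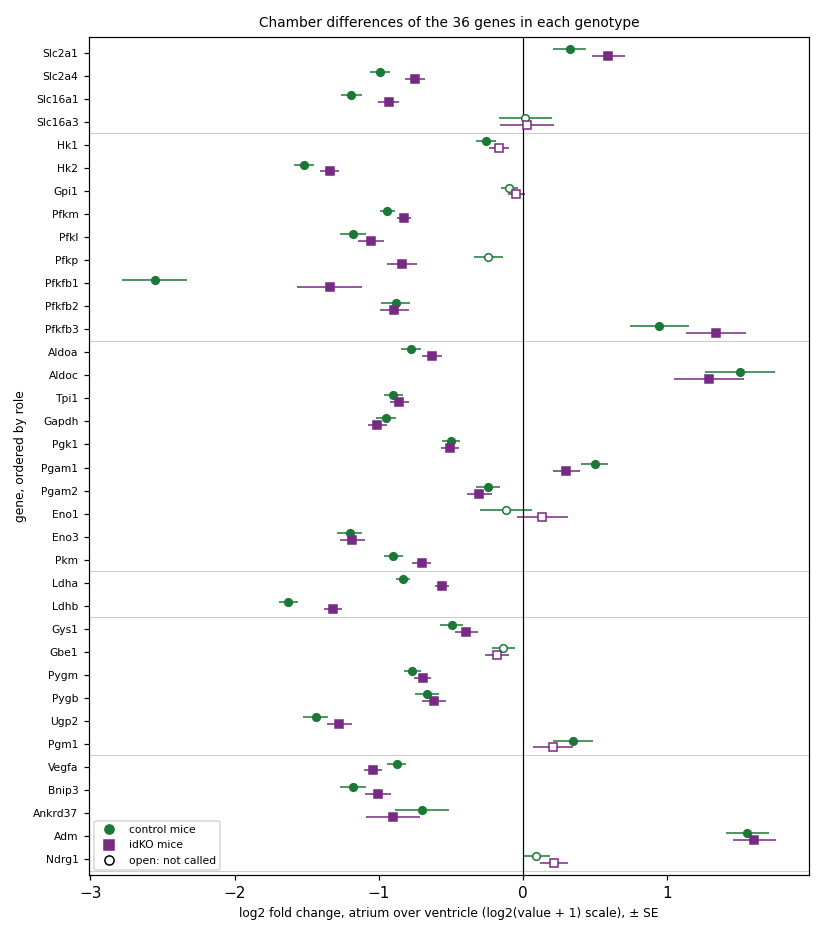
Log2 fold change (atrium over ventricle, log2(value + 1) scale, ± SE) of each gene in control (green circles) and idKO mice (purple squares), with genes in rows ordered by role. Most symbols lie left of 0 (higher in ventricles), from Pfkfb1 at -2.55 in control mice, and farthest right lie Adm and Aldoc in control mice, at 1.56 and 1.51, and Adm and Pfkfb3 in idKO mice, at 1.61 and 1.34.

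The 5 widest gaps toward ventricles in control mice were of Pfkfb1, Ldhb, Hk2, Ugp2 and Eno3. Pfkfb1 read 2.05, 2.598, 5.05 and 2.89 in control atria 1 to 4 and 20.5, 21.7, 23.1 and 25.1 in control ventricles, a log2 difference of -2.55 with SE 0.228 (limma adjusted p = 1.6e-08). In idKO mice the difference was -1.34 with SE 0.228, and, as above, the change in it did not pass. Ldhb read 568, 639, 655 and 633 in control atria, far below the ventricular values given above (log2 difference -1.63 with SE 0.0642, limma adjusted p = 2.2e-13). Hk2 read 165, 169, 177 and 184 in control atria (log2 difference -1.52), Ugp2 159.8, 169, 159 and 173 in control atria and 439, 483, 415 and 462 in control ventricles (-1.44), and Eno3 793, 1076, 819 and 921 in control atria (-1.20). For these 5 genes no atrium of either genotype reached the lowest ventricle of its own genotype, and all 5 control differences kept their direction and their call under 31 alternatives.

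Toward atria the 5 widest gaps were of Adm, Aldoc, Pfkfb3, Pgam1 and the row named Pgm1. Adm read 30.5, 26.5, 27.7 and 43.2 in control atria, well above its ventricular values (log2 difference 1.56 with SE 0.149, limma adjusted p = 4.4e-08). Aldoc, the brain aldolase, held 12 to 67 reads in control atria and 0 to 2 in control ventricles, so that its ventricular level was at the limit of detection. It read 2.44, 4.03, 0.882 and 2.21 in control atria. Its log2 difference of 1.51 depends on the pseudocount and the tool and ran from 0.51 to 4.88 over the alternatives, so its place in the order is not fixed, while its call was kept in all of them. Pfkfb3 read 15.8, 23.9, 32.5 and 32.8 in control atria and 8.29, 14.9, 13.6 and 14.9 in control ventricles. No atrium overlapped a ventricle, and atrium 1 lay nearest to them (log2 difference 0.95 with SE 0.207, limma adjusted p = 7.0e-04). Pgam1, the general phosphoglycerate mutase, read 135, 133, 117 and 105 in control atria and 104, 94.3, 73.8 and 76.2 in control ventricles, without overlap by a small margin (log2 difference 0.50). The row named Pgm1 read 8.08, 7.97, 7.23 and 6.27 in control atria and 6.004, 4.83, 6.69 and 4.91 in control ventricles, with overlap (log2 difference 0.35, limma adjusted p = 0.0415). That call was lost with the mouse as a fixed block (limma adjusted p = 0.0629) and without control atrium 1, 2 or 3 or control ventricle 2 or 4 (limma adjusted p from 0.0643 to 0.114). Slc2a1 was also higher in atria (log2 difference 0.32, limma adjusted p = 0.02095), but not without control atrium 2 or 4 or control ventricle 1 or 3 (limma adjusted p from 0.0519 to 0.0740). Toward ventricles, the call of Pgam2 was likewise lost without control atrium 1, 3 or 4 or control ventricle 2 (limma adjusted p from 0.0521 to 0.0933). The 6 that did not pass in control mice were Pfkp, Gbe1, Gpi1, Ndrg1, Eno1 and Slc16a3. Of these, Pfkp passed in idKO mice, where it was higher in ventricles (log2 difference -0.84, against -0.24 in control mice). In control mice Pfkp also passed toward ventricles with the mouse as a fixed or random block (limma adjusted p = 0.0398 and 0.0343) and without control ventricle 3 or 4 or idKO ventricle 2 or 4 (limma adjusted p from 0.0227 to 0.0418). It turned toward atria under both other scalings, at 0.061 and 0.32. In idKO mice Gbe1, Gpi1, Eno1 and Slc16a3 again did not pass. The row named Pgm1 did not pass there either (log2 difference 0.21, limma adjusted p = 0.224), except under both other scalings. Hk1 (log2 difference -0.16) and Ndrg1 (0.22, toward atria) did not pass in idKO mice. Both did with the mouse as a fixed block (limma adjusted p = 0.0182 and 0.0168). Hk1 passed in 7 of 31 alternatives. Ndrg1 passed in 11 of 31, among them DESeq2, edgeR, voom and both other scalings. Under scaling to the sum of all values Hk1 turned toward atria and passed (0.32, limma adjusted p = 0.00122).

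Markers of other cell types also differed between control chambers. The summed level of 8 fibroblast genes was 1481 to 2390 in control atria and 1015 to 1231 in control ventricles, and all 8 were higher in atria in limma. The 5 adipocyte genes summed to 37.2 to 259 in control atria and 0.813 to 1.76 in control ventricles, and all 5 were higher in atria. The 9 cardiomyocyte genes summed to 57537 to 67322 and 88986 to 94418, with 6 of 9 higher in ventricles, the ventricular light chain Myl2 among them, and Myl7, an atrial light chain, higher in atria. Some other types had higher sums in control ventricles, though not all of their genes went that way. The 6 smooth muscle and pericyte genes summed to 398 to 430 in control atria and 687 to 744 in control ventricles, where Rgs5 and Kcnj8 were higher in ventricles and Cnn1, Myh11 and Tagln in atria. The 4 erythroid genes summed to 55.0 to 129 and 259 to 311, and all 4 were higher in ventricles. The skeletal muscle genes in the table (6 of 8) summed to 796 to 1004 and 2807 to 3401, where Ckm, also a heart gene, was higher in ventricles and Actn3, Tnni2 and Tnnt3 in atria. The 8 macrophage genes summed to 403 to 510 and 343 to 349. The part of this makeup in the chamber differences was not tested.

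Taken per transcript length, the isozymes of a step can be set side by side. In control ventricles Pfkp held 2.47% ± 0.30 of the summed level of Pfkm, Pfkl and Pfkp (SD, n = 4), from 2.15 to 2.80%, and in idKO ventricles 4.65% ± 0.81, from 3.57 to 5.51%. The groups did not overlap, and Pfkm remained the main form at 88.4% in control and 86.2% in idKO ventricles. In atria Pfkp held 3.99% ± 0.34 in control and 4.602% ± 0.37 in idKO mice. The range of idKO ventricles covered that of control atria, 3.64 to 4.45%. Among Pfkfb1, Pfkfb2 and Pfkfb3, Pfkfb1 held 37.8% ± 4.11 in control and 22.6% ± 8.12 in idKO ventricles, with overlap because of idKO ventricle 1 at 34.7%. Its share in atria was 10.2% in control and 10.9% in idKO mice.

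Between chambers, Pfkfb3 held 32.1% ± 8.46 of the Pfkfb1 to Pfkfb3 sum in control atria and 8.09% ± 1.97 in control ventricles. Ldhb held 63.4% ± 1.55 of lactate dehydrogenase in control atria and 75.0% ± 0.65 in control ventricles, and 62.7% and 74.0% in idKO mice. Hk2 held 35.3% ± 1.86 of Hk1 plus Hk2 in control atria and 56.7% ± 1.04 in control ventricles. By exon length in place of transcript length those shares were 52.7% and 72.9%, so the chambers differed by either length, while which hexokinase led in atria depended on it. Eno3 held 85.3% ± 2.58 and 92.7% ± 0.41 of enolase. Pygm held 62.3% ± 1.94 and 63.9% ± 3.05 of the phosphorylases Pygm and Pygb, with overlap. A share within 1 library does not depend on the scaling between libraries, but it does depend on the transcript length chosen for each gene.

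**Figure D4:**
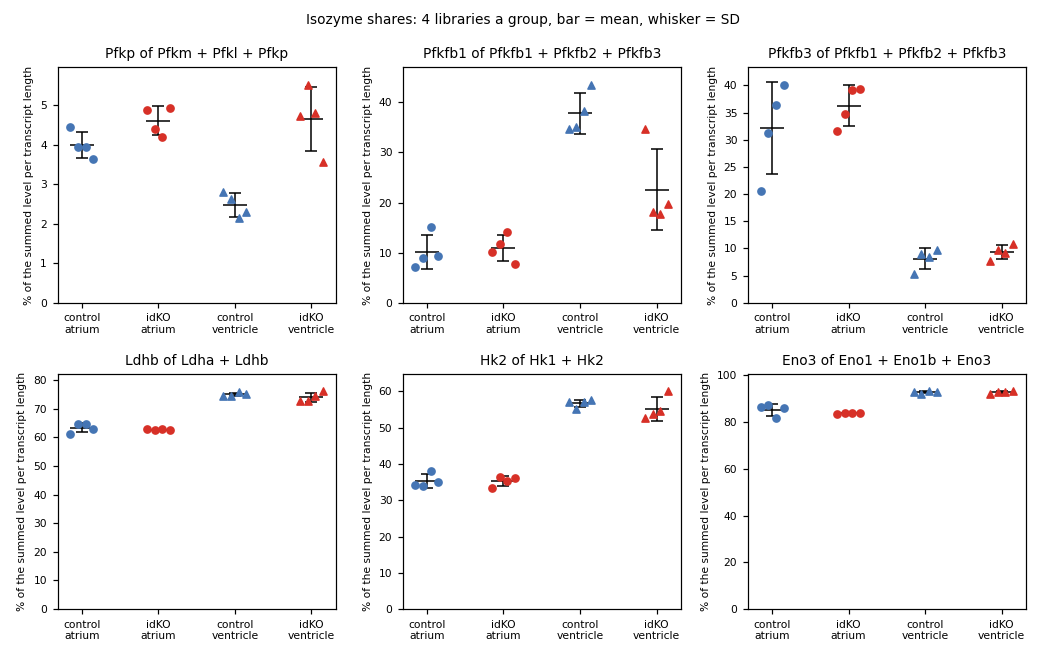
Share (%) of 1 isozyme in the summed level per transcript length of its family, in each of the 16 libraries (circles atria, triangles ventricles, blue control, red idKO), with the group mean (bar) and SD (whisker). Pfkp stands at 2.47% in control and 4.65% in idKO ventricles, and the Pfkfb3, Ldhb, Hk2 and Eno3 panels show the chambers apart in both genotypes.

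Eno1, the general enolase, has a near-identical copy, Eno1b, and the table gives reads to each, so the 2 are read together. Eno1b was listed with 0 reads in 6 libraries, both chambers of control mouse 4 and of idKO mice 1 and 4, and at 32.7 to 68.7 in the 10 libraries of the other 5 mice. Eno1 read 176.8 to 223 in the first 6 libraries and 123 to 172 in the other 10, without overlap. Summed, the genes gave 176.9 to 223 and 157 to 232, which overlap. The split followed the mouse: both chambers of a mouse fell on the same side, and both genotypes were on each side. How reads were divided between the copies was not tested. Neither quantity passed by genotype: in ventricles the log2 difference was -0.06 for Eno1 (limma adjusted p = 0.900) and -0.18 for the sum (limma adjusted p = 0.370).

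**Figure D5:**
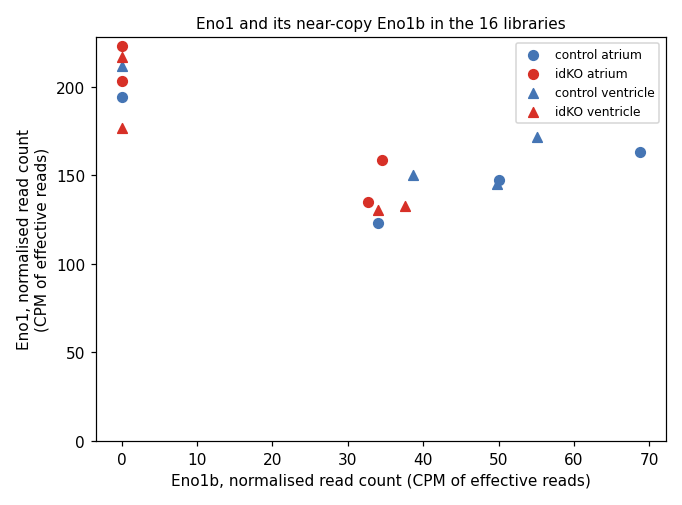
Eno1 against Eno1b, both as normalised read counts (CPM of effective reads), in the 16 libraries (circles atria, triangles ventricles, blue control, red idKO). The 6 libraries without Eno1b reads stand at 0 on the Eno1b axis with Eno1 at 176.8 or more, and the other 10 have Eno1b at 32.7 or more and Eno1 at 172 or less.

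The 6 lists of other genes of these pathways were likewise chosen with earlier results of these data known. Of their 99 genes tested, some of them in more than 1 list, 2 rose and 4 fell in ventricles. That is 6.06%, against 2.03% of all genes tested. Scaled to nuclear-encoded genes, 3 rose and 3 fell, and scaled to the sum of all values 3 rose and 2 fell. Of 6 tested genes of glucose transport and hexose phosphorylation, 0 passed. Of 14 other glycolytic and lactate genes, 2 fell, against 1.5% of all genes tested. Slc16a7, which encodes the pyruvate and lactate carrier MCT2, read 9.68, 12.8, 11.4 and 12.9 in control ventricles and 5.96, 3.599, 6.25 and 4.81 in idKO ventricles (log2 fold change -1.06 with SE 0.164, limma adjusted p = 0.00407). In atria it read 14.4, 12.1, 14.01 and 13.9 and 15.1, 13.7, 14.99 and 15.1, and its effect of genotype differed between chambers by 1.17 with SE 0.1903 (limma adjusted p = 0.00627). It was the only gene of the 6 lists for which that difference passed, and it passed without any 1 of the 16 libraries (limma adjusted p from 0.00429 to 0.0216).

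Of 14 genes for the entry of pyruvate into mitochondria, 2 fell and 13 had negative log2 fold changes (median -0.21), against 1.5% of all genes that fell, 52% below 0 and a median of -0.0076. The list also holds Pdk1, Pdk2, Pdk3 and Pdk4, kinases that inhibit pyruvate dehydrogenase, so the count of 13 is no measure of pyruvate entry in 1 direction. Under the scalings to nuclear-encoded genes and to the sum of all values 13 of 14 were still below 0, with medians of -0.15 and -0.11 against 0.052 and 0.088 over all genes, and 1 and 0 of the 14 passed. Pdhb, a subunit of pyruvate dehydrogenase, read 979.7, 1069.7, 1015 and 996 in control and 889, 785, 823 and 835 in idKO ventricles (limma adjusted p = 0.02102), and Pdp2, a phosphatase that activates that enzyme, 46.6, 50.8, 49.6 and 56.4 and 34.95, 26.7, 34.9 and 44.0 (limma adjusted p = 0.0398). The call of Pdhb was lost without control ventricle 2, 3 or 4 or idKO ventricle 3 (limma adjusted p from 0.0583 to 0.0706), and that of Pdp2 was kept only without idKO ventricle 4 and otherwise ran from 0.0584 to 0.128. Scaled to nuclear-encoded genes Pdp2 missed the threshold (limma adjusted p = 0.0511), and scaled to the sum of all values both Pdp2 and Pdhb did (limma adjusted p = 0.0626 and 0.0812). Dlat, another subunit, did not pass (log2 fold change -0.23, limma adjusted p = 0.0535). Of 28 other glycogen genes 0 passed, and Gaa, the lysosomal glucosidase, was nearest (log2 fold change -0.30, limma adjusted p = 0.0656). Under each of the other 2 scalings 1 of the 28, Ppp1r3c, a subunit that targets a phosphatase to glycogen, passed as higher.

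Of 9 hypoxia-inducible factors and their regulators, 1 rose (11.1%, against 0.533% of all genes tested in ventricles). Hif1a, the oxygen-regulated subunit, read 95.04, 105, 109.7 and 119.6 in control and 144, 145, 156 and 139.6 in idKO ventricles, without overlap (log2 fold change 0.45 with SE 0.0737, limma adjusted p = 0.00653). In atria it averaged 66.5 ± 2.33 and 65.9 ± 7.63, and the difference between chambers did not pass (limma adjusted p = 0.123). Of 32 other hypoxia targets, 1 rose (3.12%, against the same 0.533%). Ddit4, an inhibitor of mTORC1 signalling, read 33.8, 39.5, 36.4 and 60.7 in control and 79.7, 104, 66.8 and 68.5 in idKO ventricles, where control replicate 4 came nearest to the idKO values (log2 fold change 0.90 with SE 0.1698, limma adjusted p = 0.01399), and without control ventricle 3 the limma adjusted p was 0.0503. Ddit4 also missed the threshold in the joint fit of all libraries, without a filter and with a prior without a trend (limma adjusted p = 0.0628, 0.0706 and 0.0976). Transcript levels of Hif1a say nothing of its protein. In atria 0 genes of the 6 lists passed, against 0.0207% of all genes tested. The smallest p values there were of Slc2a12 (8.54, 4.33, 3.42 and 3.47 in control and 10.3, 9.44, 8.00 and 9.42 in idKO atria), Ddit4 (17.7, 20.6, 19.8 and 39.2 and 53.4, 71.5, 39.9 and 31.9), Pdhb (435, 492, 487 and 472 and 429, 412, 418 and 416) and Car9 (1.04, 2.18, 1.45 and 1.52 and 2.15, 2.502, 3.69 and 2.73), with limma adjusted p values of 0.816, 0.816, 0.966 and 0.966.

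Beside these ventricular differences, the summed level of 8 macrophage genes was 343 to 349 in control and 382 to 469.9 in idKO ventricles, and 1 of the 8, Lyz2, rose. The 9 cardiomyocyte genes summed to 88986 to 94418 and 78208 to 88940, and 1 of the 9, Ryr2, fell. Their log2 fold changes were above 0 for 1 of 9, with a median of -0.17, beside -0.11 for the 35 members. The 8 fibroblast genes summed to 1015 to 1231 and 1086 to 1828, with 0 of 8 passing. The 8 endothelial genes summed to 1641 to 1729 and 1614 to 1751. Log2 fold changes were above 0 for 7 of 8 macrophage (median 0.21), 7 of 8 fibroblast (0.27) and 6 of 8 endothelial genes (0.076). Adipocyte genes were at or below 1.76 in every ventricle. The part of these markers in the results was not tested.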

How the data were processed

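Per the labels' protocols, each library started from 20 ng of RNA and was read from 1 end over 60 bases. The submitters' processing notes list cutadapt, RSEM 1.3.1 and build GRCm38, with further steps not given in the sources used here. A normalised signal was deposited, and its steps show how the authors made it: adding 0.5 to whole reads, then dividing by an effective size and scaling to CPM (100% of values came out whole within 0.01). Recovered reads lay between 13.1 and 21.8 M (mega) reads per library and are rounded RSEM estimates, in which reads shared by near-identical genes may be split.

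The table turned out to hold normalised values, so the form of the design for such values was used: limma 3.58.1 (R 4.3.3) with values as log2(value + 1), two-sided, a prior with a trend and Benjamini-Hochberg adjustment over all genes tested (4 or more libraries at 1 CPM of the summed values) and a threshold of 0.05. Each chamber was fitted on 8 libraries, and chambers and the interaction on 16. The code was tested on simulated data. DESeq2 1.42.0, edgeR 4.0.16 and voom on recovered reads were alternatives, as were pseudocounts, filters, scalings, priors, weights, the mouse as a block, each library left out and, chosen after seeing the data, Eno1 summed with Eno1b and the pathway lists under 2 other scalings. Positions are from GENCODE on GRCm38. SDs are over 4 libraries from 4 animals.

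Atrium and ventricle of a mouse are paired, since they come from the same animal. Their deviations from group means correlated at 0.177 to 0.302 over 11802 genes. In all 8 mice this was closer than with the ventricle of any other mouse of the same genotype. Centring on group means by itself lowers the correlations between different mice of a group.

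The members, the 6 pathway lists and the cell type markers were chosen with earlier results of these data known. By the rule for named genes, values by library are given for members that passed by genotype. The same holds for the 2 members of each role with the smallest ventricular p. It holds too for the 5 with the largest chamber difference in each direction. Pfkm and Pygm were given by library beyond the rule. Of the pathway lists, up to 8 genes by ventricular p and 4 by atrial p are named, Dlat and Gaa without values by library. Other members are given as group values, and Pgm2 was added after its values were seen. A gene that falls under the rule is not reported here; it stays in the fits and the counts.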

Additional observations from a re-analysis of the deposited data

Results flagged for a closer look

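In 7 of the 144 groups of 4 libraries looked at (36 genes in 4 groups), 1 library stood apart from the other 3 by Dixon's criterion; chance alone gives about 5 in 100, or 7.2. In control ventricles, Slc2a4 was lowest in replicate 3 at 637 (others 656 to 660.4), Pfkm highest in replicate 3 at 1649 (others 1567 to 1578), and Eno3 lowest in replicate 1 at 1919 (others 2098 to 2121). In control atria, Slc16a1 was lowest in replicate 1 at 136 (others 173 to 177) and Gapdh highest in replicate 2 at 431 (others 382 to 386). In idKO atria, Aldoc was lowest in replicate 1 at 1.13 (others 2.30 to 2.48) and Gys1 highest in replicate 4 at 110.3 (others 97.4 to 99.2). The 7 flags fall on 7 different genes and 6 different libraries.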

How the results depend on the processing

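Over the alternatives tried, Slc16a1 passed in ventricles in all 23, and the count of members that passed there (6) changed as follows. It was 3 without a filter on low values (Pfkfb1, Ldhb and Pkm lost), 1 with a prior without a trend (Slc16a1 alone), 11 in DESeq2 (Hk2, Gys1, Pfkm, Eno3 and Ldha gained) and 10 in the joint fit of all libraries with the mouse as a random replicate block (Hk2, Gys1, Pfkm and Ldha gained). It was 7 with a filter of 5 CPM (Ldha gained) and 8 in the joint fit without a block (Pfkm and Ldha gained), and under scaling to the sum of all values it stayed at 6 with Pkm lost and Vegfa gained. With 1 ventricle left out it ran from 3 (without control ventricle 4) to 7 (without idKO ventricle 4). Pfkp and Slc2a4 were lost only under the prior without a trend, with limma adjusted p of 0.0504 and 0.0873. The prior without a trend also ended the calls of Hif1a, Ddit4, Pdhb and Pdp2 (limma adjusted p = 0.0640, 0.0976, 0.131 and 0.146). Without a filter the calls of Ddit4 and Pdp2 were lost too (limma adjusted p = 0.0706 and 0.109). The cause of these changes was not tested. In atria the count was 0 under all alternatives, from 0 to 0 with 1 library left out.

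For the difference of the genotype effect between chambers (0 members), DESeq2 called 2 and the fixed replicate block, which pairs the chambers of a mouse, called 1 (Ldhb), while the random block called 0. With 1 library left out the count ran from 0 to 1. The block left the chamber counts at 30 (fixed) and 31 (random) in control mice, and at 31 in both forms in idKO mice. In control mice both forms gained Pfkp and the fixed form lost the row named Pgm1, and in idKO mice both gained Hk1 and Ndrg1. Those counts ran from 28 to 31 and from 29 to 30 with 1 library left out.

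Scaling turned some chamber differences (atrium over ventricle). Under scaling to nuclear-encoded genes the control values became 0.063 for Pgam2, 0.061 for Pfkp, 0.17 for Gbe1, 0.21 for Gpi1, 0.049 for Hk1 and 0.19 for Eno1. Under scaling to the sum of all values they became 0.069 for Gys1, 0.070 for Pgk1, 0.32 for Pgam2 and Pfkp, 0.43 for Gbe1, 0.47 for Gpi1, 0.31 for Hk1 and 0.45 for Eno1. In idKO mice the first gave 0.079 for Gbe1, 0.22 for Gpi1 and 0.096 for Hk1, and the second 0.084 for Gys1, 0.18 for Pgam2, 0.30 for Gbe1, 0.44 for Gpi1 and 0.32 for Hk1. Slc16a3 had no call in control mice before rescaling. With single libraries left out it ran from -0.065 (without control ventricle 3) to 0.10 (without control ventricle 4). It was -0.024 without control atrium 4. Under scaling to the sum of all values Slc16a3 rose to 0.46 and passed toward atria (limma adjusted p = 0.0384). Depth limits Aldoc in ventricles and the second Aldoa row, each under 10 reads a library.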
